A study of Rattus norvegicus with 20 samples.

Results

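The genes described here encode carboxylesterases of the CES1 and CES2 families and epoxide hydrolases, measured in rat liver after exposure to PBDE-47, a brominated diphenyl ether congener from flame-retardant mixtures. They were chosen by name: every probe set of the array whose single annotated symbol begins with Ces1, Ces2 or Ephx. This gave 9 of the 31042 probe sets tested, standing for 7 genes. The carboxylesterases were Ces1c (2 probe sets), Ces1d, Ces1e and Ces2c, and the epoxide hydrolases were Ephx1, Ephx2 and Ephx4 (2 probe sets). The name rule itself uses no measured value, but the members were chosen with earlier results of these data known.

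Each of the 20 arrays held liver RNA of Wistar Han rats labelled female, at postnatal day 4, with 5 arrays in each of 4 groups. Time-mated females, 11 to 12 weeks old at gestation day 2, were dosed by gavage with corn oil at 5 mL/kg from gestation day 6 to postnatal day 4. The oil was given alone (vehicle) or with PBDE-47 for a daily dose of 0.1, 15 or 50 mg/kg, from formulations of 0.02, 3 and 10 mg/mL. No group carried a transgene or a deletion. Doses are given per dam in the labels, which leave unsaid whose livers, dams' or pups', were taken and which samples share a litter. P-values therefore measure only the spread between these samples, which may include related animals.

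Carboxylesterases are serine hydrolases, mostly of the endoplasmic reticulum, that cleave ester and amide bonds in drugs, pesticides and lipids, and the liver is a main site of their expression. Epoxide hydrolases add water to epoxides, the reactive products of many cytochrome P450 reactions, and turn them into diols. Microsomal epoxide hydrolase, the product of Ephx1, acts on epoxides of foreign compounds and is a classical target of phenobarbital-type inducers. Soluble epoxide hydrolase, the product of Ephx2, acts mainly on fatty acid epoxides. The receptors CAR and PXR switch on many genes of foreign-compound metabolism, carboxylesterases among them.

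All values are log2 intensities made by RMA, which corrects background, normalizes arrays to one distribution and summarizes the probes of a set. Array medians lay between 5.60 and 5.65, and the values ran from 2.14 to 14.82. A difference of 1 on this scale is a 2-fold difference in the RMA value. The means of 7 hepatocyte markers, secreted liver proteins such as albumin, lay between 14.16 and 14.28 on all 20 arrays, so the liver label held. Markers of skeletal muscle and exocrine pancreas stood high on some arrays of the groups: the mean of 16 muscle markers reached 8.38, 8.70, 8.65 and 7.09 in the vehicle, 0.1, 15 and 50 mg/kg groups, against lowest values of 4.33, 4.44, 4.45 and 4.59. The mean of 17 pancreas markers reached 4.44, 6.75, 6.86 and 4.51 in the same groups. In a liver sample, fewer cells of a type and less RNA per cell cannot be told apart.

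Ephx1 and Ces2c rose at 50 mg/kg, and Ephx1 rose at 15 mg/kg too. At 50 mg/kg, 2 of 9 probe sets passed an adjusted p under 0.05 against vehicle, where 0.934% of all probe sets were called, and both were higher (0.586% of all were called higher). At 15 mg/kg, 1 of 9 passed, where 0.116% of all were called. At 0.1 mg/kg, 0 of 9 passed in the limma fit, where 0% of all were called. None of the 9 had an unadjusted p under 0.05 at that dose, which 6.87% of all probe sets had. Each adjusted p is from limma with Benjamini-Hochberg adjustment over the 31042 probe sets. The 9 log2 changes had a median of 0.52 at 50 mg/kg, 0.31 at 15 mg/kg and -0.02 at 0.1 mg/kg, beside 0.01 over all probe sets in each of these comparisons. The 3 comparisons share the vehicle arrays.

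**Figure D1:**
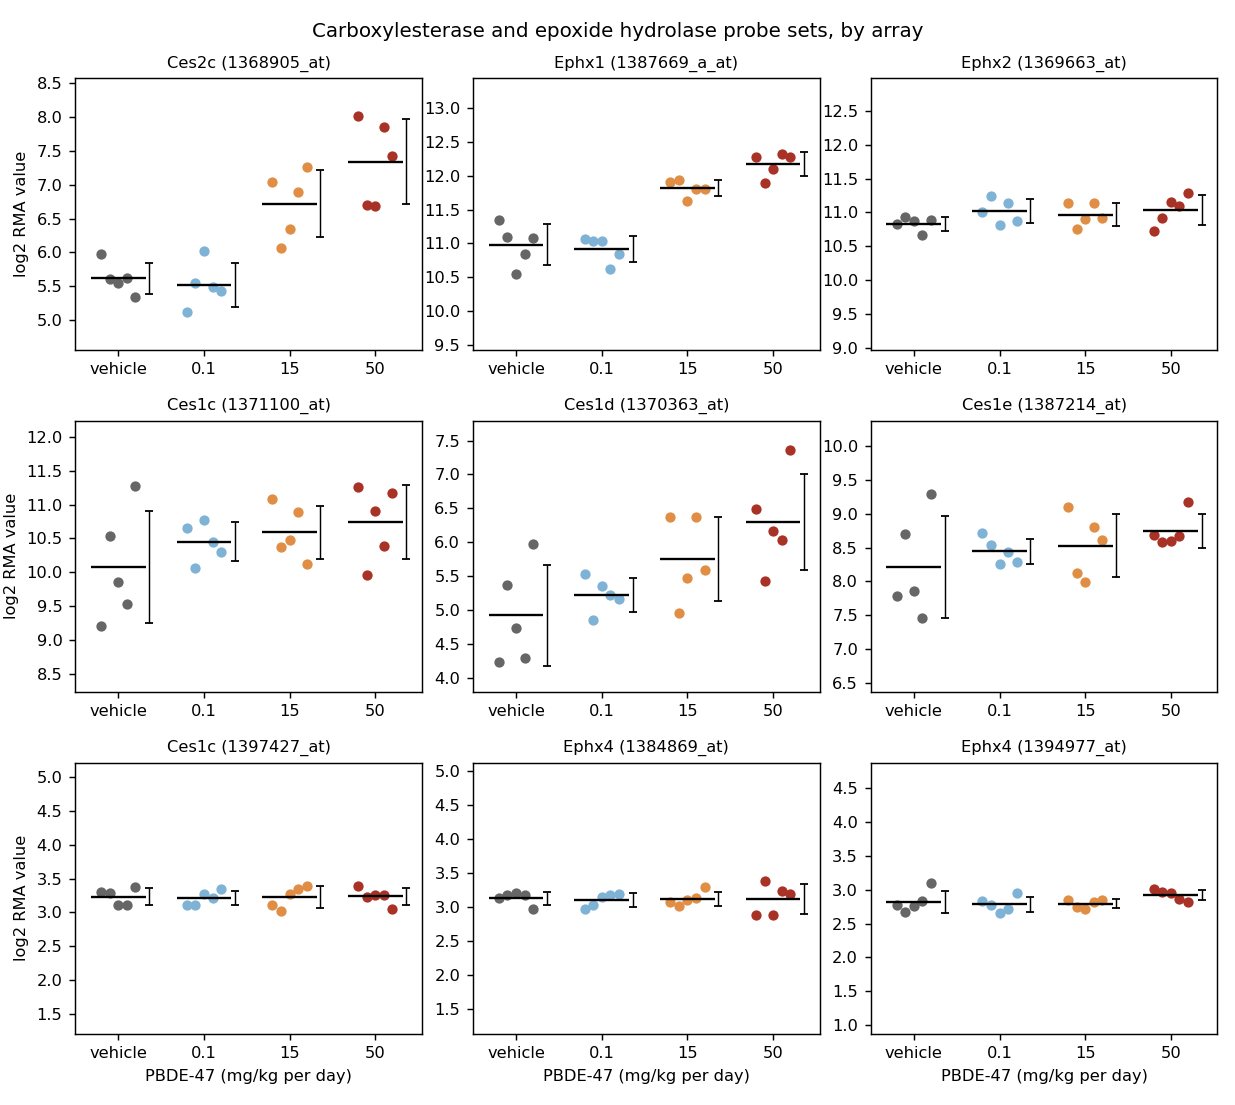
Each panel plots 1 probe set, with the log2 RMA value of each array against dose and 5 arrays per group. The long line is the group mean and the bar beside it the SD, and every panel spans the same number of log2 units. Ces2c and Ephx1 lay above all vehicle arrays at 15 and 50 mg/kg. The Ces1 probe sets of the middle row varied most in the vehicle group, and the bottom row stayed near the floor of the scale.

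Ces2c, a carboxylesterase of the CES2 family, had the largest log2 change of the 9 probe sets. Its probe set 1368905_at read 5.97, 5.60, 5.55, 5.62 and 5.34 on the vehicle arrays, 5.12, 5.54, 6.03, 5.49 and 5.43 at 0.1 mg/kg, 7.04, 6.07, 6.34, 6.89 and 7.26 at 15 mg/kg, and 8.02, 6.70, 6.68, 7.85 and 7.43 at 50 mg/kg. All arrays at 15 and 50 mg/kg were above all vehicle arrays, and the 0.1 mg/kg arrays were mixed with the vehicle arrays. At 50 mg/kg Ces2c averaged 7.34 ± 0.63, against 5.62 ± 0.23 in vehicle livers (SD, n = 5 each). The log2 change was 1.72 (SE 0.26, 95% interval 1.18 to 2.26), a 3.29-fold rise with an adjusted p of 0.00160 from limma. At 15 mg/kg it averaged 6.72 ± 0.50, and the log2 change of 1.10 (SE 0.26) did not pass, with an adjusted p of 0.109 from limma, although the groups did not overlap. Of the 9 probe sets, 2 did not overlap with vehicle upward at 15 mg/kg and 2 at 50 mg/kg, where 1.57% and 1.78% of all probe sets did so. At 0.1 mg/kg the log2 change of Ces2c was -0.10, with a 95% interval from -0.63 to 0.44.

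The spread of Ces2c was larger in the dosed groups than in the vehicle group. At 50 mg/kg the arrays fell into 3 readings from 7.43 to 8.02 and 2 at 6.68 and 6.70. Replicates 1 and 4, with the highest Ces2c, also had the highest muscle marker means of that group, 6.71 and 7.09. Vehicle replicate 2 had a muscle mean of 8.38 with Ces2c at 5.60, and replicate 4 at 0.1 mg/kg had 8.70 with Ces2c at 5.49. Over all 20 arrays, the deviation of Ces2c from its group mean had a correlation of r = -0.06 with that of the muscle mean (adjusted p = 0.859, permutation within groups). That correlation pools all groups and does not describe the 50 mg/kg group alone. Without the 9 arrays whose muscle or pancreas mean stood more than 2 above the lowest array, 3 arrays at 50 mg/kg and 4 vehicle arrays remained. The Ces2c change at 50 mg/kg was then 1.32, with an adjusted p of 0.108 in limma. With both marker means as covariates and all arrays kept it was 1.73, with an adjusted p of 0.00391 in limma. Whether muscle or pancreas transcripts had a part in the Ces2c readings was not tested.

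The 250 bases upstream of the Ces2c start are shown because this was the carboxylesterase that rose. They lie on the plus strand of GRCr8 at chr1:270376951-270377200, outside the gene, and were taken from RefSeq's annotation of that build. Capitals mark a match to AGTTCA on the minus strand, a variant of the half-site that nuclear receptors bind.
Ces2c: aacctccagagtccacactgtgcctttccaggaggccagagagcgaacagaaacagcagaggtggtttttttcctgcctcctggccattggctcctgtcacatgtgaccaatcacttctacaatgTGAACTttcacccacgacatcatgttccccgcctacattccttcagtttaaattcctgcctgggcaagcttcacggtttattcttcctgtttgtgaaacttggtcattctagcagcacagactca
The match began at position -125 from the start. On either strand AGTTCA occurred in 12.2% of 33465 rat upstream windows of this length, so it is a common string. No match to AGGTCA, TGACNNNGC or GCGTG was in this window. Rat chromosomes 1 and 19 hold 14 Ces2 genes in RefSeq, 4 of them pseudogenes, and the Ces2c window was 74.0% identical to that of Ces2b and 68.9% to that of Ces2, against 47.5% to that of Ces1d. No other Ces2 gene had a probe set with its single symbol on this array. Whether the Ces2c probe set also takes up RNA of a close relative was not tested, since probe sequences were not used here.

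Ephx1 encodes microsomal epoxide hydrolase. Probe set 1387669_a_at read 11.35, 11.09, 10.55, 10.84 and 11.08 on the vehicle arrays, 11.06, 11.04, 11.04, 10.63 and 10.84 at 0.1 mg/kg, 11.91, 11.94, 11.63, 11.80 and 11.80 at 15 mg/kg, and 12.28, 11.89, 12.09, 12.32 and 12.28 at 50 mg/kg. Every array at 15 and 50 mg/kg was above every vehicle array. The lowest array at 15 mg/kg read 11.63, above the highest vehicle array at 11.35. At 50 mg/kg the gene averaged 12.17 ± 0.18, against 10.98 ± 0.30 in vehicle livers (SD, n = 5 each), a log2 change of 1.19 (SE 0.12, 95% interval 0.93 to 1.45). This 2.28-fold rise had an adjusted p of 3.81e-05 in limma. At 15 mg/kg Ephx1 averaged 11.81 ± 0.12, a 1.78-fold rise over vehicle (log2 change 0.83, SE 0.12, adjusted p = 0.00543 in limma). At 0.1 mg/kg the log2 change was -0.06, with a 95% interval from -0.32 to 0.20.

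The Ephx1 call at 50 mg/kg held under 21 of 21 alternative settings, with log2 changes between 1.08 and 1.28. The highest adjusted p among these settings was 0.0482 in limma, close to the threshold. At 15 mg/kg the Ephx1 call held under 19 of 21. It was lost when only the 10 arrays of the 2 groups entered the fit (adjusted p = 0.0799 in limma) and without the arrays carrying muscle or pancreas transcripts (log2 change 0.92, adjusted p = 0.222 in limma).

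RefSeq gives 2 start sites for Ephx1. The upstream window of the first held none of the 4 motifs searched. The window of the second is shown because Ephx1 rose at both upper doses and because it held matches to 2 of them. It lies on the minus strand at chr13:95263118-95263367 of GRCr8, inside the gene as annotated from its first start. Capitals mark, from the left, AGGTCA on the minus strand, AGGTCA on the plus strand, and TGACNNNGC, the core of the antioxidant response element, on the minus strand.
Ephx1: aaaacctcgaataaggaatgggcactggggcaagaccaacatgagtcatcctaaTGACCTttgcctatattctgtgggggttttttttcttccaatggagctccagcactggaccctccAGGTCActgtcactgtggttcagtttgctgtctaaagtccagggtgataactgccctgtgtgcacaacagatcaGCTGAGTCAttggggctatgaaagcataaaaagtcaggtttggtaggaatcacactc
These matches began at positions -196, -131 and -57 and did not overlap. AGGTCA occurred in 14.1% of all windows and TGACNNNGC in 10.1%. Which start site the livers used was not measured.

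The order of the group means was the same for Ces2c and Ephx1: 0.1 mg/kg, vehicle, 15 mg/kg and 50 mg/kg from low to high. The lower pair in this order did not differ beyond their spread, and neither did the upper pair after adjustment. Between 50 and 15 mg/kg, 0 of 9 probe sets passed in limma, where 0% of all were called. At an unadjusted p under 0.05, 2 of 9 differed, against 5.63% of all. These were Ces2c, with a log2 difference of 0.62 (95% interval 0.08 to 1.15, adjusted p = 0.858), and Ephx1, with 0.36 (95% interval 0.10 to 0.62, adjusted p = 0.858). At 50 mg/kg, 4 of 5 Ephx1 arrays and 3 of 5 Ces2c arrays were above all arrays at 15 mg/kg. Between 50 and 0.1 mg/kg, 2 of 9 probe sets passed, where 0.644% of all were called. Ces2c was 3.52-fold higher at 50 mg/kg (adjusted p = 0.000742 in limma) and Ephx1 2.38-fold higher (adjusted p = 1.10e-05 in limma). Only 1 array at 0.1 mg/kg was free of muscle and pancreas transcripts by this measure. Set against that array, which the fit takes to vary like the other groups, neither difference passed (Ces2c 0.91, adjusted p = 0.974 and Ephx1 1.05, adjusted p = 0.857 in limma).

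**Figure D2:**
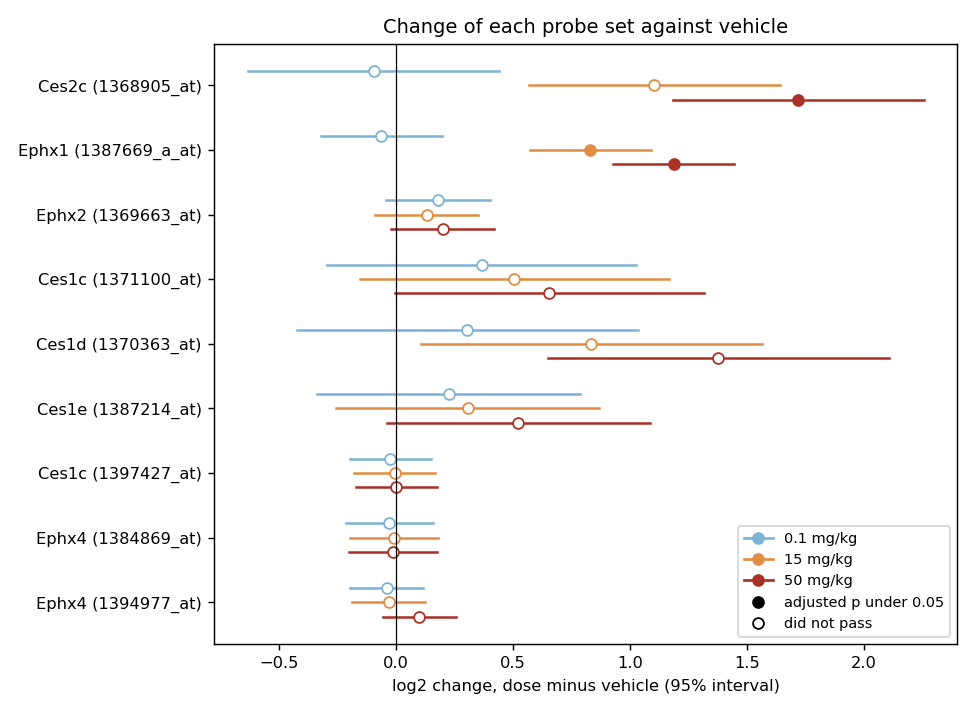
The log2 change of each of the 9 probe sets against vehicle is plotted for the 3 doses, with its 95% interval, and filled points passed an adjusted p under 0.05. Ephx1 passed at 15 and 50 mg/kg and Ces2c at 50 mg/kg, while the intervals were wide for the 3 brighter Ces1 probe sets and narrower for Ephx2, Ephx4 and the dim Ces1c probe set.

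Some Kupffer cell markers fell in the livers at 50 mg/kg. Of 8 measured markers of these resident liver macrophages, 4 fell and 0 rose at 50 mg/kg against vehicle, 0 passed at 15 or 0.1 mg/kg, and 0 passed between 50 and 15 or between 50 and 0.1 mg/kg. Over all probe sets, 0.934% were called in either direction at 50 mg/kg against vehicle. The mean of the marker list lay between 8.97 and 9.38 at 50 mg/kg, against 9.57 to 9.76 in vehicle livers. The lowest value of any probe set on any array was 2.14, so no marker could read 0 on this scale. Within groups, the deviation of the list mean had correlations of r = -0.30 with Ces2c and r = -0.40 with Ephx1, and neither passed (adjusted p = 0.623 and 0.293, permutation). The part of cell makeup in the Ephx1 and Ces2c rises was not tested.

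Ephx2, the soluble epoxide hydrolase, did not pass at any dose. Probe set 1369663_at read 10.83, 10.93, 10.87, 10.66 and 10.88 on the vehicle arrays, 11.01, 11.24, 10.82, 11.15 and 10.87 at 0.1 mg/kg, 11.13, 10.75, 10.90, 11.13 and 10.92 at 15 mg/kg, and 10.72, 10.92, 11.16, 11.10 and 11.29 at 50 mg/kg. The 4 groups overlapped, with means from 10.84 in vehicle livers to 11.04 at 50 mg/kg. The log2 change at 50 mg/kg was 0.20 (SE 0.11, adjusted p = 0.441 in limma). Its 95% interval, -0.02 to 0.42, lay below that of Ephx1, 0.93 to 1.45. The 2 hydrolases were not tested against each other.

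Ephx4, a less studied member of the epoxide hydrolase family, read near the floor of the array in every group. Its 2 probe sets lay between 2.87 and 3.38 (1384869_at) and between 2.65 and 3.10 (1394977_at). Their log2 changes at 50 mg/kg were -0.01 and 0.10, and neither passed. The second probe set of Ces1c, 1397427_at, lay between 3.03 and 3.39 and had a log2 change of 0.00, unlike the bright one. Readings this low carry mostly background, so these 3 probe sets say little about the RNA.

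The CES1 genes varied most between the vehicle livers, with SDs of 0.83 for Ces1c (bright probe set), 0.74 for Ces1d and 0.75 for Ces1e. At 0.1 mg/kg the SDs were 0.29, 0.25 and 0.19. They were 0.39, 0.61 and 0.47 at 15 mg/kg, and 0.55, 0.71 and 0.25 at 50 mg/kg. For Ces1d the spread at 50 mg/kg was thus near that of the vehicle group. The values of these genes are given by array because of the vehicle spread, a choice made after seeing them. Ces1d, which in mice hydrolyses stored triacylglycerol, read 4.23, 5.36, 4.74, 4.30 and 5.97 on the vehicle arrays, 5.54, 4.85, 5.35, 5.23 and 5.16 at 0.1 mg/kg, 6.38, 4.96, 5.47, 6.38 and 5.58 at 15 mg/kg, and 6.49, 5.43, 6.17, 6.04 and 7.36 at 50 mg/kg. At 50 mg/kg 4 of 5 arrays were above all vehicle arrays, and the group means ordered by dose. The mean was 6.30 ± 0.71 at 50 mg/kg, against 4.92 ± 0.74 in vehicle livers (SD, n = 5 each). The log2 change of 1.38 (SE 0.35, 95% interval 0.65 to 2.11) did not pass, with an adjusted p of 0.0688 in limma.

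That call lay near the threshold and changed with single arrays and with other settings. Without vehicle replicate 5, the highest of its group, the Ces1d change was 1.64 and passed (adjusted p = 0.0228 in limma), and without replicate 2 at 50 mg/kg it was 1.59 and passed (adjusted p = 0.0353). It also passed with array weights (1.43, adjusted p = 0.0426) and with 1 probe set per gene (1.38, adjusted p = 0.0481). In the other 16 of 20 alternatives it did not pass, and the adjusted p ran from 0.0228 to 0.450 over all 20. At 15 mg/kg the change was 0.83 (adjusted p = 0.352), and it did not pass under any of 20 alternatives.

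Ces1c, a secreted plasma esterase in mice, read 9.21, 10.54, 9.86, 9.53 and 11.27 on the vehicle arrays, 10.66, 10.06, 10.78, 10.45 and 10.30 at 0.1 mg/kg, 11.08, 10.37, 10.47, 10.89 and 10.12 at 15 mg/kg, and 11.26, 9.97, 10.91, 10.39 and 11.16 at 50 mg/kg. Vehicle replicate 5 was the highest of the 20 arrays and vehicle replicate 1 the lowest. Ces1e, known in mice as egasyn, which holds beta-glucuronidase in the endoplasmic reticulum, read 7.79, 8.70, 7.86, 7.46 and 9.29 on the vehicle arrays, 8.71, 8.54, 8.25, 8.43 and 8.29 at 0.1 mg/kg, 9.10, 8.12, 7.99, 8.80 and 8.62 at 15 mg/kg, and 8.68, 8.58, 8.59, 8.67 and 9.18 at 50 mg/kg. Here too the vehicle group held both the highest and the lowest array, and the groups overlapped. The log2 changes at 50 mg/kg were 0.66 for Ces1c (SE 0.32, adjusted p = 0.387) and 0.52 for Ces1e (SE 0.27, adjusted p = 0.426). Their 95% intervals ran from -0.0044 to 1.32 and from -0.04 to 1.09.

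The 3 CES1 genes varied together from liver to liver within groups. After each group's mean was taken away, Ces1c and Ces1d had a correlation of r = 0.88 over the 20 arrays (Spearman's rho 0.88), Ces1d and Ces1e of r = 0.83 (rho 0.80), and Ces1c and Ces1e of r = 0.75 (rho 0.65). Their permutation p-values, drawn within groups and adjusted over 15 pairs of genes, were 3.00e-04, 0.00112 and 0.0129 for r, and 9.00e-04, 0.00370 and 0.0427 for rho. Without the 2 arrays farthest from the median of the first gene named, r was 0.85, 0.77 and 0.60. Vehicle replicate 5 carried part of the third relation: without it, Ces1c and Ces1e had r = 0.59 and an adjusted p of 0.0874 (permutation). Without the arrays carrying muscle or pancreas transcripts the 3 values were 0.90, 0.88 and 0.89 over 11 arrays.

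**Figure D3:**
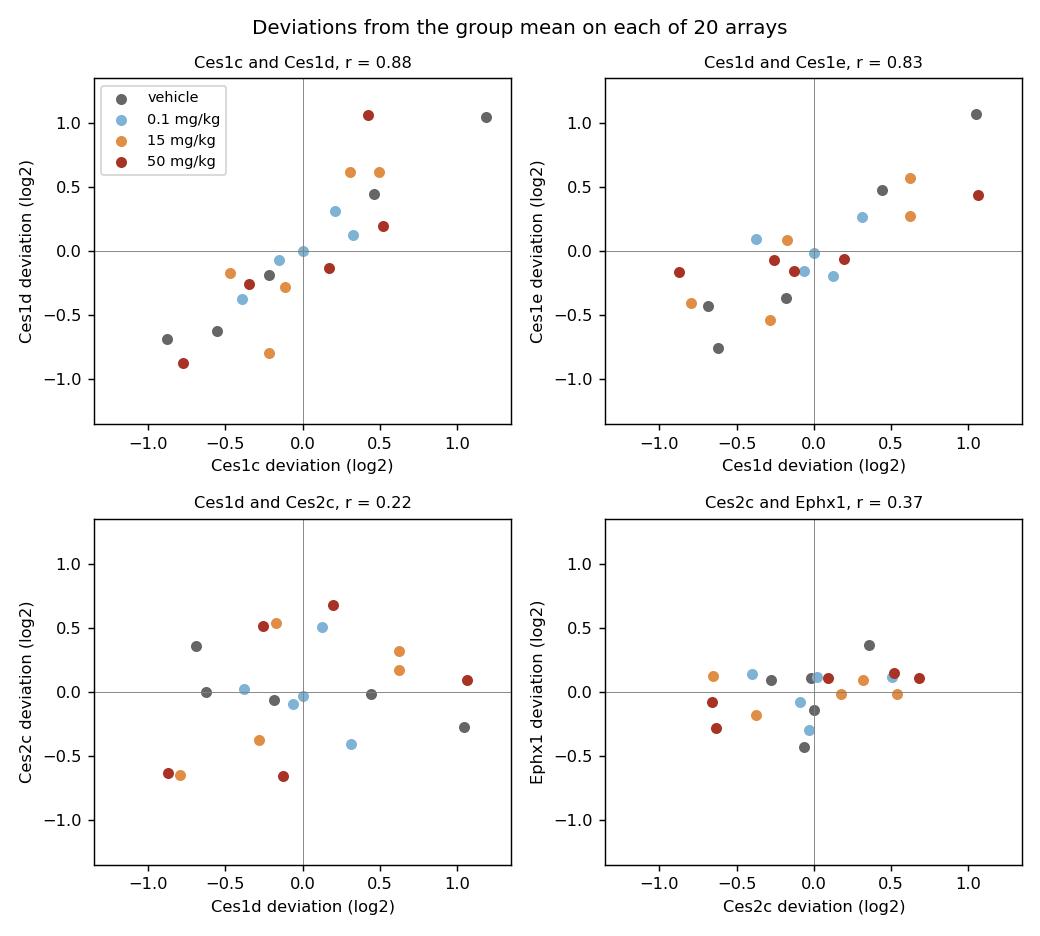
Each point is 1 of 20 arrays, coloured by dose, with the deviation of 2 genes from their group means in log2 units on the axes. Ces1c with Ces1d (r = 0.88) and Ces1d with Ces1e (r = 0.83) lie along a line, and Ces1d with Ces2c (r = 0.22) and Ces2c with Ephx1 (r = 0.37) scatter.

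Beyond that trio, 1 of the other 12 pairs passed. Ces1e and Ephx2 had r = 0.53 (rho 0.65, adjusted permutation p of 0.0129 for r and 0.00370 for rho), and r was 0.57 without the 2 farthest arrays. The 2 genes that rose with dose did not pass as a pair within groups (Ces2c with Ephx1, r = 0.37, rho 0.34, adjusted p = 0.201, permutation). Ces2c had r between 0.05 and 0.22 with the 3 CES1 genes. A probe set annotated to both Ces1f and Cesl1, which the name rule leaves out, had r of 0.35, 0.25 and 0.26 with Ces1c, Ces1d and Ces1e. Its log2 change at 50 mg/kg was 0.28 (adjusted p = 0.544 in limma).

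The variation of Ces1d and Ces1e also went with the levels of cell type markers. Of 54 relations between 6 genes and 9 cell type marker means, adjusted together, Ces1d and Ces1e passed with the hepatocyte mean (r = 0.68 and 0.65, adjusted p = 0.0137 for both, permutation) and, downward, with the mean of 9 erythroid markers (r = -0.59 and -0.57, adjusted p = 0.0335 and 0.0137, permutation). Ces1c passed with none of the 9 (r = 0.39 with the hepatocyte and -0.33 with the erythroid mean, adjusted p = 0.261 and 0.307, permutation). For the relations of Ces1d and Ces1e, Spearman's rho was 0.67 and 0.73 with the hepatocyte mean and -0.63 and -0.75 with the erythroid mean, and r without the 2 farthest arrays was 0.54, 0.61, -0.61 and -0.54. Ephx2 passed with the endothelial mean (r = 0.57, rho 0.69, adjusted p = 0.0366, permutation). Ces1e did so by rank only (rho 0.83, adjusted p = 0.00468, and r = 0.68, adjusted p = 0.117, permutation). The erythroid mean ran from 9.81 to 10.57 in vehicle livers, 8.74 to 11.07 at 0.1 mg/kg, 8.62 to 10.94 at 15 mg/kg and 8.88 to 10.65 at 50 mg/kg, so all groups overlapped. The hepatocyte mean spanned far less, from 14.21 to 14.26 in vehicle livers and from 14.20 to 14.28 at 0.1 mg/kg. It ran from 14.16 to 14.27 at 15 mg/kg and from 14.20 to 14.27 at 50 mg/kg. The highest value of any probe set on any array was 14.82, so these markers read near the top of the scale. The part of cell makeup in the shared CES1 variation was not tested.

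Ces1c, Ces1d and Ces1e lie side by side on rat chromosome 19, where Ces1f, Ces1e, Ces1d, Ces1c and Ces1a are consecutive genes in RefSeq. The other of the 6 Ces1 genes there, Ces1dl1, lies apart from them on the same chromosome. Their upstream windows are shown because these genes varied together. The Ces1c window is cut at the gene's annotated start, which leaves 186 bases at chr19:30099197-30099382. The others are 250 bases at chr19:30046244-30046493 for Ces1d and chr19:30005923-30006172 for Ces1e, all on the plus strand of GRCr8. Capitals mark GTAAACTC, a stretch picked out after seeing these sequences, and also AGTTCA in Ces1c and GCGTG, the core of the dioxin receptor's binding site, in Ces1d.
Ces1c: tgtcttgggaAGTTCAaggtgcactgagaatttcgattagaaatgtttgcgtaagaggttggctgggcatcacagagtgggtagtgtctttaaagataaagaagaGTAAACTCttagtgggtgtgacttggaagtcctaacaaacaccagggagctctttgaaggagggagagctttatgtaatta
Ces1d: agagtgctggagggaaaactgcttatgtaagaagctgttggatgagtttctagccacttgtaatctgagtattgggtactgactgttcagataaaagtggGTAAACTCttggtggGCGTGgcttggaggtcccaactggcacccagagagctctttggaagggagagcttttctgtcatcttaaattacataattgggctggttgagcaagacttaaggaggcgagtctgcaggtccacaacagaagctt
Ces1e: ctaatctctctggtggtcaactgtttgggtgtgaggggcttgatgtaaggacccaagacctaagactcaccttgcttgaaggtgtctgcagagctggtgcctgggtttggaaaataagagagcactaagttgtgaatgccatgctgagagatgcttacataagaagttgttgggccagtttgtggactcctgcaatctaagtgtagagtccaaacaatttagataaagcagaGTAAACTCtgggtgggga
GTAAACTC began at positions -145, -150 and -18 and occurred in 0.454% of all windows on either strand, and since it was chosen from these sequences that share is a description only. AGTTCA began at -240 in Ces1c and GCGTG at -135 in Ces1d, a string that 25.9% of windows held. Positions in Ces1c are counted from the end of its uncut window of 250 bases, which lies inside the annotated gene. They are therefore larger than a count from the end of the 186 printed bases, and cannot be set beside those of Ces1d and Ces1e. Aligned over the full windows, Ces1c and Ces1d were 60.9% identical, Ces1c and Ces1e 54.6%, and Ces1d and Ces1e 48.5%. How far the CES1 probe sets take up RNA of these neighbours was not tested. Ephx2 and Ephx4 are named here without sequence.

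Around the members, part of the genes of foreign-compound metabolism rose at 50 and 15 mg/kg. Ephx1 passed at both of these doses and Ces2c at 50 mg/kg only. Of 28 listed CAR and PXR targets other than the members, 20 were measured by a single-symbol probe set, and Cyp2b1 and Cyp2b2 were not. Of these 20, 11 rose and 0 fell at 50 mg/kg (median log2 change 0.79), where 0.586% of all probe sets were called higher. At 15 mg/kg 6 rose (median 0.51), where 0.116% of all were called. Those with the smallest p at 50 mg/kg were the P450 genes Cyp2c6v1 (log2 change 1.80) and Cyp2c7 (3.21), the heme synthesis gene Alas1 (1.52) and the glucuronosyltransferase Ugt2b1 (0.80). The list and its members were written with earlier results of these data known, so the count is a description. Over all probe sets the median was 0.01 at both doses.

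A list drawn up for epoxide formation and other epoxide removal had 34 measured genes. At 50 mg/kg 8 of the 34 rose, 0 fell and 26 did not pass (median 0.34), where 0.934% of all probe sets were called. At 15 mg/kg 4 rose and 30 did not pass (median 0.11), where 0.116% of all were called. Cyp1a1, a P450 that forms arene epoxides, had a log2 change of 3.46 at 50 mg/kg and 2.50 at 15 mg/kg, and both passed. The glutathione transferase gene Gsta3, whose product can conjugate epoxides, rose by 0.81 at 50 mg/kg. Of the 8 genes that rose at 50 mg/kg, Cyp2c6v1, Cyp2c7, Gsta3 and Gstm1 also belong to the list of CAR and PXR targets. Leukotriene A4 hydrolase (Lta4h), an epoxide hydrolase of another fold, had -0.29 and did not pass.

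Among other esterases and lipases, 3 of 34 measured rose at 50 mg/kg, where 0.586% of all probe sets were called higher, and 0 at 15 mg/kg, with median log2 changes of 0.09 and 0.05. The 3 were Lyplal1 (0.49), a lysophospholipase-like hydrolase, Mgll (0.43), which cleaves monoacylglycerol, and Abhd11 (0.40), and each change was below that of Ces2c (1.72). Butyrylcholinesterase (Bche) had 0.35, arylacetamide deacetylase (Aadac) -0.12, paraoxonase (Pon1) 0.07 and hepatic lipase (Lipc) -0.02, and none of these passed. Abhd3 had -1.77 with an SE of 1.37 and did not pass.

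Some targets of the factors NRF2 and PPARA rose at 50 mg/kg, where 0.586% of all probe sets were called higher. Of 17 NRF2 targets, which include glutathione and quinone enzymes, 3 rose at 50 mg/kg and 0 at 15 mg/kg: Gsta3 (0.81), Me1 (0.83) and Gstm1 (0.77), of which Gsta3 and Gstm1 are also on the CAR and PXR list. Of 19 PPARA targets, among them genes of fatty acid oxidation, 3 rose at 50 mg/kg and 0 at 15 mg/kg. The 3 were Pdk4 (1.04), Cpt2 (0.54) and Ehhadh (0.87). The difference between these shares and that of the CAR and PXR list was not tested. Of 12 receptor and liver factor genes, 0 passed in limma at either dose: at 50 mg/kg Ahr had 0.66 (adjusted p = 0.123), Nr1i3, which encodes CAR, -0.27, and Nr1i2, which encodes PXR, 0.13.

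**Figure D4:**
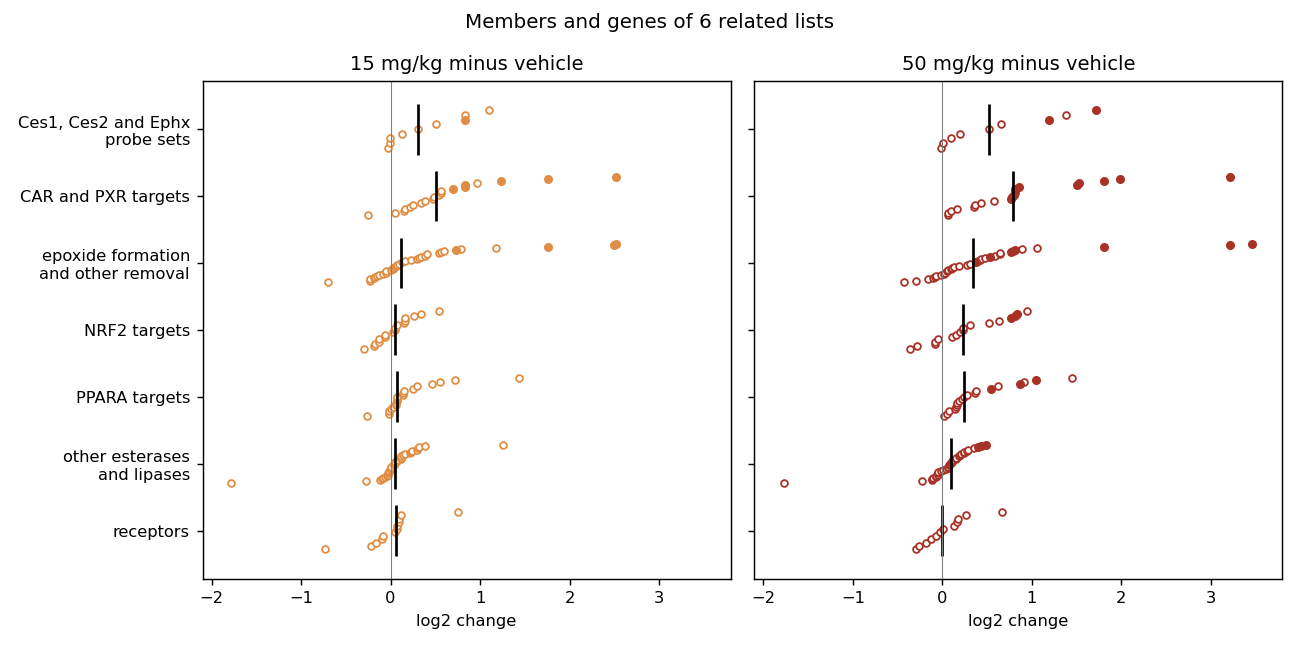
Each row is a list and each point the log2 change of 1 gene (for the top row, 1 probe set) at 15 mg/kg on the left and 50 mg/kg on the right, with filled points for an adjusted p under 0.05 and a line at the median. The CAR and PXR targets have medians of 0.51 and 0.79, and the other esterases and lipases of 0.05 and 0.09.

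The genes whose values over the 20 arrays were most like those of Ces2c and Ephx1 were themselves called at 50 mg/kg. For Ces2c these were Mnd1 (r = 0.95), Aldh1a1 (0.92), Ugt2b35 (0.91), Pecr (0.89) and Cyp1a1 (0.89). For Ephx1 they were Pecr (0.94), Cyb5a (0.94), Cyp1a1 (0.93), Cyp2c7 (0.92) and Txnl1 (0.92). These correlations include the dose steps that the genes share. With the group means taken away, the genes most like Ces2c were Micu3 (0.82), Rab7b (0.77), Glrx2 (0.77), Erlec1 (0.77) and Ugt2b35 (0.76), so 1 of 5 was in both lists. For Ephx1 they were Gsr (0.87), Hsbp1 (0.85), Lman1 (0.82), Pebp1 (0.80) and Syap1 (0.80), with 0 of 5 in both. For Ephx2 the nearest genes were Polg (0.78), Pctp (0.78), Sepsecs (0.76), Ganc (0.76) and Psmg1 (0.76), and within groups Nsfl1c (0.80), Gkap1 (0.80), Polg (0.80), Fez2 (0.79) and Notch1 (0.78). All are correlations over 20 arrays that share one normalization, chosen as the highest among all genes.

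**Figure D5:**
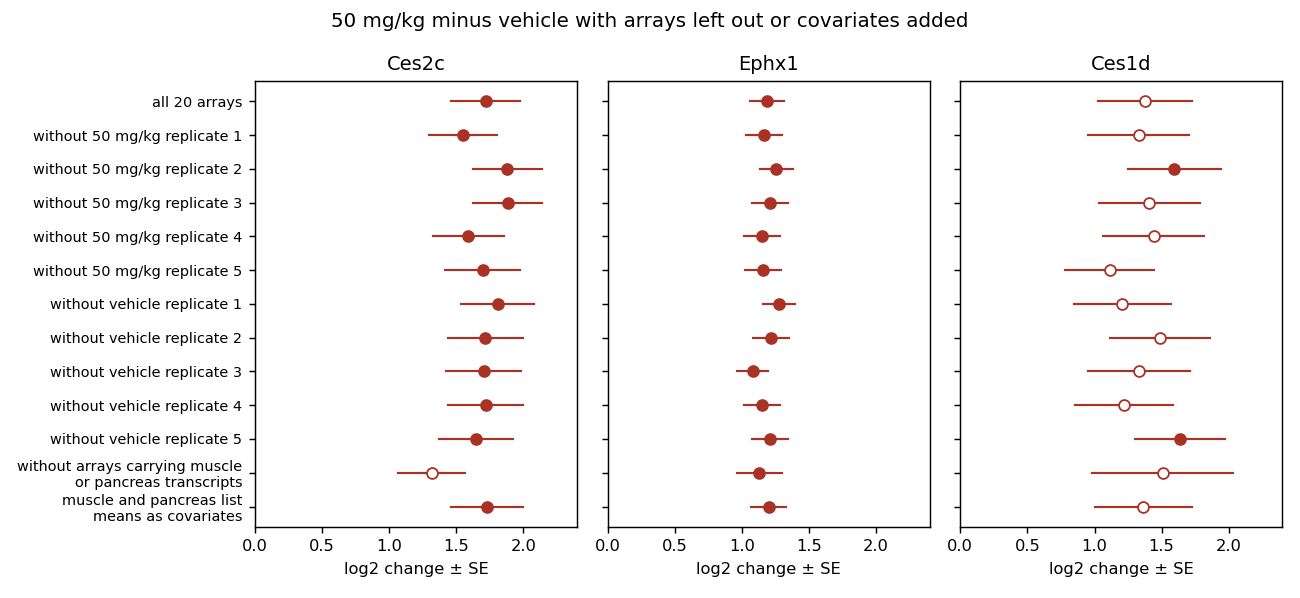
The log2 change at 50 mg/kg against vehicle, with its SE, is plotted for Ces2c, Ephx1 and Ces1d with all 20 arrays, without each array of the 2 groups, and with 2 treatments of the muscle and pancreas transcripts. Filled points passed an adjusted p under 0.05: Ephx1 in every row, Ces2c in every row but the one without the arrays carrying muscle or pancreas transcripts (1.32), and Ces1d only without replicate 2 at 50 mg/kg (1.59) or vehicle replicate 5 (1.64).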

How the data were processed

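Liver RNA (100 ng) was amplified with a 3' IVT Plus kit and hybridised to Rat230_2 arrays, per the labels' protocols. The 31099 probe sets of the 20 arrays were deposited as log2 values that the authors made with RMA, per the submitters' processing notes; the version is not given in the sources used here. After 57 control probe sets were left out, 31042 were tested with no filter on low values. In the platform annotation 20826 of them have 1 symbol and 436 have several, and 9780 are unnamed here. All 7 genes matched RefSeq's GRCr8 gene table by gene ID.

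A mean per group was fitted over the 20 arrays with limma 3.58.1 (lmFit and eBayes) in R 4.3.3, with Benjamini-Hochberg adjustment per comparison and calls under 0.05. Tests were two-sided. Correlations used deviations from group means and 100000 permutations within groups. The code was tested on simulated data. Upstream windows and figures used Python 3.11.15, Biopython 1.88 and matplotlib 3.10.9. Precision is limited by the number of arrays.

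The members and gene lists were chosen with earlier results of these data known. Members were given by array where called in any comparison, or if Ces2c, Ephx1 or Ephx2, and the CES1 genes after seeing their values. List genes were named if called at 15 or 50 mg/kg, at most 4 per list (those of smallest p at the top dose), each by its brightest single-symbol probe set; list genes named as not passing were picked after seeing the values. Likeness names the 5 highest correlations among genes with a mean log2 of at least 6. Marker lists covered hepatocytes, skeletal muscle, exocrine pancreas, red cell precursors, Kupffer cells, endothelium, stellate cells and fibroblasts, cholangiocytes and small intestine. Of these, the hepatocyte, red cell precursor and endothelial lists gave relations that passed. Alternatives changed the normalization, variance model, filter, samples, covariates and blocks.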

Additional observations from a re-analysis of the deposited data

Results flagged for a closer look

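Of 36 groups of 5 arrays examined (9 probe sets and 4 doses), 1 held an array far from the others. Ces1e (1387214_at) read 9.18 on replicate 5 at 50 mg/kg, where the nearest array of the group read 8.68, and this gap was 0.824 of the range of the group. Chance flags about 1 in 20 groups. The same array had the highest Ces1d value of the 20, 7.36. The cause was not tested.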

How the results depend on the processing

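Beside leaving out single arrays, 11 other settings were run; those for the CES1 correlations were added after seeing the data. With only the compared groups in the fit, all-probe-set calls numbered 89 at 50 mg/kg and 11 at 15 mg/kg against vehicle, and 0 members passed at 15 mg/kg. With the muscle and pancreas means as covariates, 16 probe sets were called at 15 mg/kg and 121 between 50 and 0.1 mg/kg. Without the arrays carrying muscle or pancreas transcripts, 1 member and 21 probe sets passed at 50 mg/kg, 0 and 7 at 15 mg/kg, and 0 and 3 between 50 and 0.1 mg/kg; fewer samples entered these fits. Leaving out 1 array at a time gave 2 to 3 members and 106 to 264 probe sets at 50 mg/kg (leaving out replicates 3, 4 and 5 of that dose gave 181, 106 and 152, and leaving out vehicle replicates 2, 3 and 4 gave 180, 177 and 137), 1 member and 14 to 44 probe sets at 15 mg/kg (16 without replicate 4 at that dose, 14 without its replicate 5, 20, 22 and 23 without vehicle replicates 3, 4 and 5), 0 members and 0 to 1 probe sets at 0.1 mg/kg (1 without replicate 3 at 0.1 mg/kg or vehicle replicate 4), and 2 members and 107 to 162 probe sets between 50 and 0.1 mg/kg (leaving out replicates 4 and 5 of the 50 mg/kg group gave 107 and 119, and replicate 5 of the 0.1 mg/kg group 112). The correlation of Ces1c and Ces1e was 0.59 without vehicle replicate 5. The cause was not tested. Ces2c passed at 50 mg/kg in 20 of 21 alternatives (1.32 to 1.88) and at 15 mg/kg in 0 of 21 (adjusted p 0.0572 to 0.333). The direction of a called change did not reverse in any alternative run. Replicate numbers showed no sign of pairing the samples, which does not exclude a pairing. Same-numbered arrays of different groups had correlations of deviations from -0.36 to 0.29 (mean -0.02, 30 pairs). With the replicate number as a block, 2 members and 235 probe sets passed at 50 mg/kg, 1 and 36 at 15 mg/kg, and 2 and 184 between 50 and 0.1 mg/kg, and no call of a member changed.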

Other observations

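Among genes most like the CES1 members within groups, chosen after seeing the data, were the phosphodiesterase gene Enpp3 (r = 0.89) and the hepatic lipase gene Lipc (0.84) for Ces1d, and Pigp (0.92), Adtrp (0.89) and Lipc (0.88) for Ces1e, each over 20 arrays. Lipc had a log2 change of -0.02 at 50 mg/kg (adjusted p = 0.969 in limma), so a gene with no called change followed Ces1d and Ces1e from liver to liver. Abhd3, of the other esterases and lipases, averaged 6.08 in vehicle livers, 3.05 at 0.1 mg/kg, 4.30 at 15 mg/kg and 4.31 at 50 mg/kg, with an SE of 1.37 for each difference, and no comparison passed (adjusted p = 0.636 at 50 mg/kg in limma).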
